A study of Oryctolagus cuniculus with 8 samples.

Results

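Baseline gene expression was described in the forebrain of preterm rabbit pups that had received only saline. The series holds 8 samples, and the 4 samples titled CTR, called saline 1 to 4 here, were taken by their label alone. They came from New Zealand rabbits delivered by Caesarean section at day 29 of a pregnancy whose term is 32 days. The pups were kept in an infant incubator, fed formula by gavage, given the saline vehicle by the intramuscular route and sampled at postnatal day 14. The labels name no sex, litter or genotype, and they do not say whether 1 sample is 1 pup. The series design calls the samples biological replicates, so the spread reported below is that between samples as labelled. Total RNA was amplified, labelled with Cy3 (saline 1 and 3) or Cy5 (saline 2 and 4) and hybridised to Agilent rabbit arrays. Saline 1 and 2 shared array 1, and saline 3 and 4 shared array 2, so an array and the pair of samples on it cannot be told apart.

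The forebrain of a mammal around birth holds young neurons that extend axons and form synapses, astrocytes, a pool of oligodendrocyte precursors that are only starting to make myelin, microglia, vessels, choroid plexus and meninges. Stathmins, tubulins and other cytoskeletal proteins build the growing neurites, ribosomal proteins and translation factors serve protein synthesis, and myelin proteins accumulate later as axons are wrapped. RNA of a bulk sample mixes all of these cells, so that fewer cells of a type and less RNA per cell cannot be told apart.

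The arrays carried 43603 probes of 60 bases outside the controls. Of these, 22186 carried 1 gene symbol, 63 several and 21354 none, and 9932 named genes were represented. The scanner's call of a spot well above background was made for 42.5% (saline 1), 52.9% (saline 2), 39.1% (saline 3) and 59.7% (saline 4) of spots, so both Cy5 samples had more such spots than both Cy3 samples. Between 932 and 3022 spots per sample were marked as outliers and left out, and 0 were saturated. Levels are given as log2 normalised signal. On this scale the 17025 probes well above background in no sample had a median of 8.94 and the 11688 well above background in all 4 had a median of 10.04, so values near 9 are at the floor of the measurement. The brightness of a spot depends on its probe as well as on the amount of RNA. A list of bright genes is therefore a list of bright probes, and the number of arrays (2) limits the precision.

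The probe sequences were needed to read the list of brightest genes. Of the 25 brightest probes of the array, 22 (88%) held the run CTCTCTCT somewhere in their 60 bases, and so did 53 of the brightest 100. Among all 39188 probes with 4 values only 112 (0.286%) held it. The median level was 15.69 with the run and 9.08 without it. The reverse complement AGAGAGAG stood in 157 probes (0.401%), which had a median of 8.98 and did not occur among the brightest 200. The following 30-base stretches of probes, read from the scanner files and written 5′ to 3′ with the run in capitals, show bright probes with the run, each followed where there is one by the brightest probe of the same gene without it.
ACTMAP, with the run: gacctttctgtCTCTCTCTctcactgtcca
METTL6, with the run: agaaCTCTCTCTctctgtgcctctgcctct
METTL6, without the run: cctagctcggctcttcgcagacacaggtta
CETP, with the run: tctctggctgtCTCTCTCTgcctctcaagt
CETP, without the run: caccctgaagctgattctgaagcgacaggt
SFTPA1, with the run: tttgtctctccCTCTCTCTgtaactctacc
SFTPA1, without the run: gatgtacacagatgggaagtggaatgacaa

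In each of these pairs the 2 probes of a gene read very different levels. METTL6, a transfer RNA methyltransferase, read 17.53 with the run at chr14:1489767-1489826 and 9.75 without it at chr14:1490245-1492446 (build oryCun2, minus strand, positions from the scanner files). CETP, the plasma cholesteryl ester transfer protein, read 17.26 at chr5:13200352-13200411, and its brightest probe without the run read 8.92 at chr5:13189405-13189683 and was well above background in no sample. The same held for SFTPA1, a lung surfactant protein, at 17.23 and 8.93. GPC3, a glypican, read 16.20 and 9.75, and CRYZ, a quinone reductase, 16.08 and 10.82. Among the 11 named genes that had a probe of each kind with 4 values, the brightest probe with the run was brighter in all 11, with a median difference of 5.62. ACTMAP read 18.23, the highest mean of any probe, from a single probe at chrX:88042350-88042409 whose symbol rests on a predicted transcript, so no second probe was at hand. The run stood in 7 of the 25 brightest named genes, among them ACTMAP, METTL6, CETP, SFTPA1, GPC3 and CRYZ. Where a gene is read from such a probe its level is named as such below and is not taken as its abundance.

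**Figure D1:**
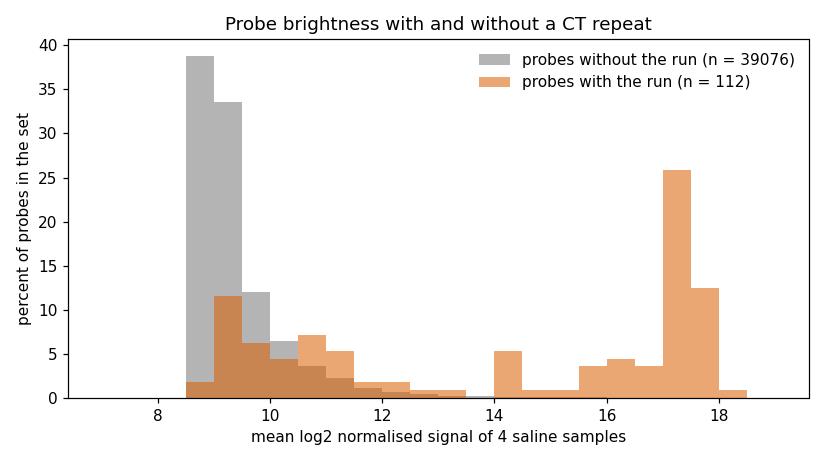
Distribution of mean log2 normalised signal (horizontal axis) over the 4 saline samples, as the percent of probes in each set (vertical axis), for 112 probes with the run and 39076 without. The probes without the run pile up near 9, with a median of 9.08, while the probes with the run reach from 8.90 to 18.23 with a median of 15.69.

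Without the run, the brightest named genes were those of the cytoskeleton, of protein synthesis and of young neurons. A 30-base stretch of the TUBA1B probe is shown because it read the highest level of a named gene free of the run.
TUBA1B: tacattgtcttcactcaactgtgatcatgt

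TUBA1B, an alpha-tubulin of microtubules, read 17.15, 17.44, 17.39 and 16.93 in saline 1 to 4 (mean 17.23, SD 0.23, n = 4) at chr4:33424513-33424572 (minus strand). RPLP1, a protein of the ribosomal stalk, read 17.05, 17.27, 17.40 and 17.03, a range that overlaps that of TUBA1B, so their order is not resolved. ACTB, cytoplasmic actin, read 16.99, 17.44, 16.82 and 17.18, with both Cy5 samples above both Cy3 samples. STMN2, a microtubule-destabilising protein of growing neurites, read 16.77, 16.80, 16.85 and 16.50. All 4 genes were well above background in every sample, and their SDs ran from 0.15 to 0.26.

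Ribosomal proteins filled much of what followed. RPL23A, RPS27A, RPL37A, RPS20, RPL35A, RPL23 and RPS12 had means from 15.99 to 16.41, and RPS20 was the steadiest of them, with 16.06, 15.99, 16.10 and 16.05. RPS25 read 15.94, 16.08, 15.03 and 15.38 and RPL10 read 15.91, 15.80, 15.02 and 15.20. Both were lower in saline 3 and 4 than in saline 1 and 2, without overlap, but this did not hold on the scanner's processed signal (log2 relative to the 75th percentile of each channel). There RPS25 read 6.87, 6.94, 6.38 and 6.88 and RPL10 6.79, 6.61, 6.35 and 6.64, and the pairs overlapped. RPS20 was not the steadiest on that signal, at 6.96, 6.88, 7.46 and 7.56 (SD 0.345), while RPL23 had an SD of 0.137. The median difference of all genes tested on the processed signal, array 2 minus array 1, was 0.35. With marked spots kept, the brightest RPL10 probe was a different one, marked in 1 sample, and it read 15.90, 15.83, 15.88 and 15.82. TPT1, the translationally controlled tumour protein, read 15.90, 16.14, 15.86 and 15.70. Neurite and vesicle genes stood beside them. ARL6IP1, an endoplasmic reticulum shaping protein, had a mean of 16.40, MARCKSL1, an actin-binding protein, 15.92, STMN1 15.81, ATP6V0C, a subunit of the vesicular proton pump, 15.61, RTN1, a reticulon of neurons, 15.39 and the neuronal kinesin KIF5C 15.21. GNAS, the stimulatory G protein subunit, read 15.66, 16.12, 15.03 and 15.36.

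A few bright genes are not known as forebrain transcripts. ASB10, a suppressor of cytokine signalling box protein, read 17.07, 16.98, 17.21 and 16.75 from a single probe. KIF20A, a kinesin of dividing cells, read 16.04, 14.63, 15.84 and 14.75 from a single probe, high in both Cy3 samples and low in both Cy5 samples. SFTPB, a lung surfactant protein, read 14.74, 14.68, 14.91 and 14.83. Its 5 probes start 1 base apart from chr2:100610305 to chr2:100610309, and the 4 with all values read 14.79, 12.06, 10.77 and 9.93 in order of their start, so a shift of a few bases changed the reading of this gene by nearly 5 log2 units. Whether these probes take up other RNA was not tested.

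**Figure D2:**
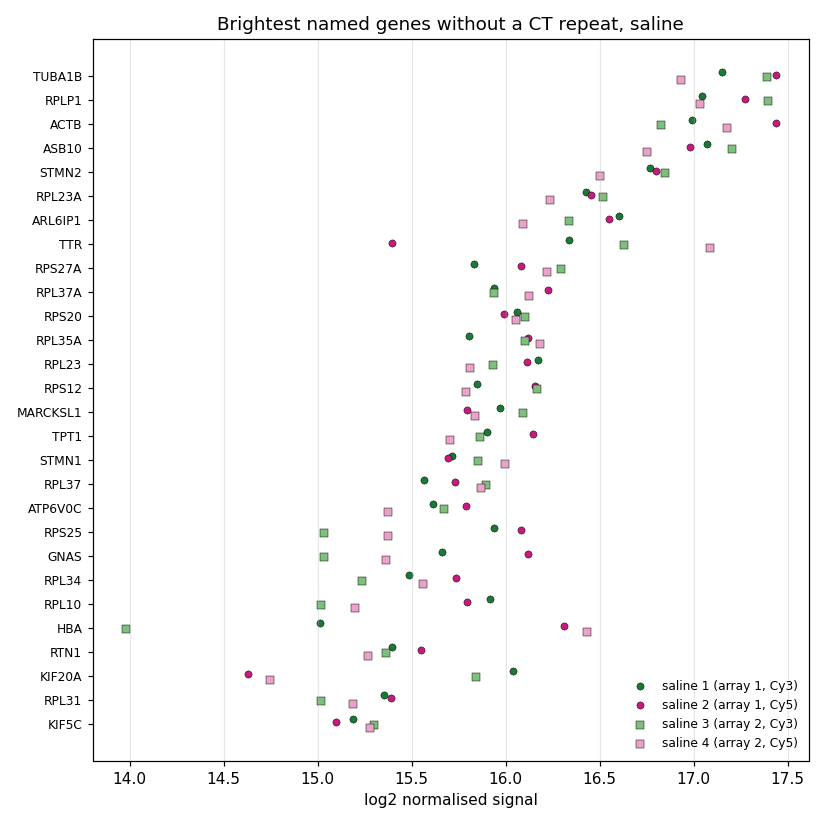
Log2 normalised signal (horizontal axis) of 28 of the 30 brightest named genes whose probe lacks the CT repeat, 1 point per saline sample, circles for array 1 and squares for array 2, green for Cy3 and pink for Cy5. Most genes lie within 1 unit across samples, whereas HBA and KIF20A divide by dye and saline 2 is lowest for TTR.

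The scanner's outlier mark fell on bright probes more than on dim ones, so it thinned this list. It was set in at least 1 sample for 35 of the brightest 100 probes, for 76.6% of the next 900 and for 0.982% of the 33603 dimmest. With marked spots kept, 8 of the 25 brightest named genes free of the run were genes that the main values leave out. They were RPS23, EEF1A1, GAPDH, FTL, RPL7A, FTH1, RPL26 and PPIA. GAPDH, the glycolytic enzyme often used as a reference, then read 16.30, 16.41, 16.59 and 16.22. EEF1A1, the elongation factor that brings transfer RNA to the ribosome, read 16.40, 16.82, 16.18 and 16.76. FTL and FTH1, the ferritin chains that store iron, had means of 16.32 and 16.16. For 62 of the 6100 named genes tested (1.02%), a probe more than 1 log2 unit brighter was left out in this way. For cystatin C (CST3), the probe kept read 9.18 and the probe left out 15.49.

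Of all named genes, 4173 (42%) were well above background in all 4 samples and 2530 (25.5%) in none. Between these, 998 genes (10.0%) were called in saline 2 and 4 alone, the Cy5 samples, and 736 in saline 4 alone, but only 4 in saline 1 and 3 alone. With marked spots counted, 4633 genes were called in all 4 samples and 2514 in none. Of 834 entries in 32 lists of genes by cell type or function, 492 had a probe. The lists differed widely in the share called in all 4 samples. Cytoskeleton (12 of 14) and pan-neuronal genes (11 of 15) lay above the 42% of all named genes, and genes of other organs (3 of 16) and monoamine and cholinergic enzymes (1 of 7) below it. These are counts of array calls and carry no test.

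**Figure D3:**
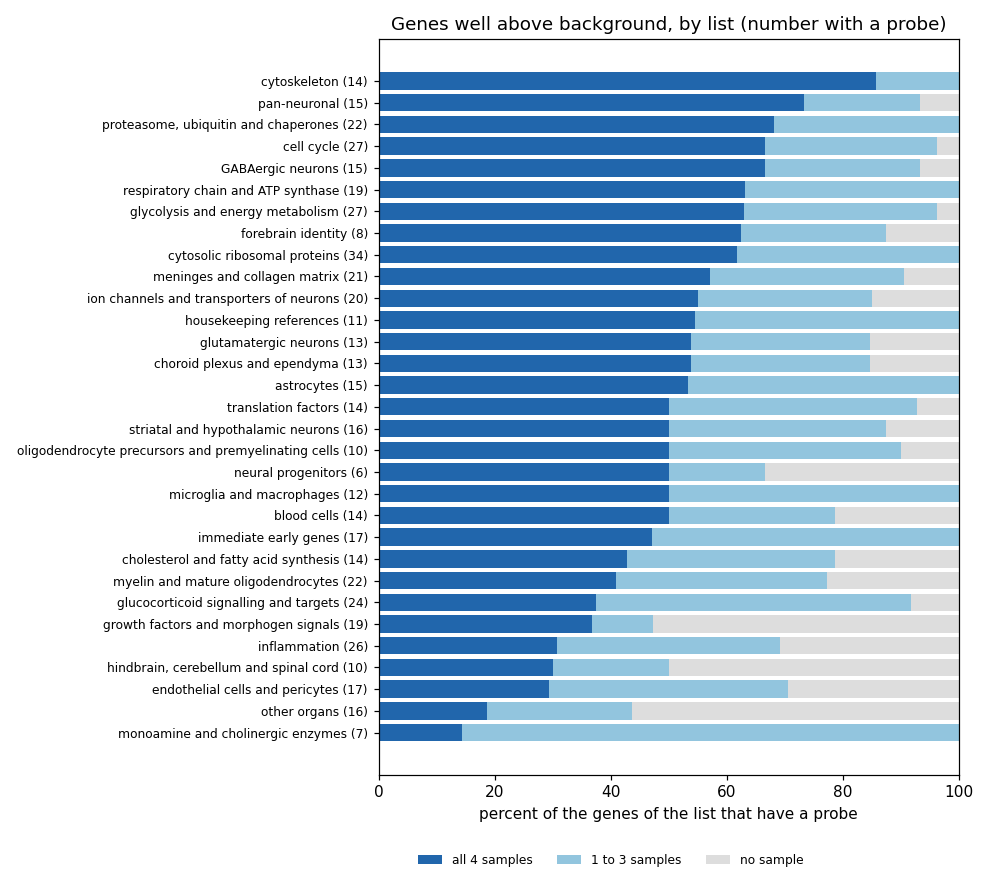
Percent of the genes of each list (horizontal axis) that were well above background in all 4 saline samples, in 1 to 3 samples or in no sample, with the number of genes that have a probe in parentheses. Cytoskeleton and pan-neuronal genes head the plot with 12 of 14 and 11 of 15 in all 4 samples, and monoamine and cholinergic enzymes stand last with 1 of 7.

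Of the 15 pan-neuronal genes, 11 were well above background in all 4 samples, and 14 with marked spots counted. Besides STMN2, UCHL1, a neuronal ubiquitin hydrolase, read 14.40, 14.81, 14.07 and 14.42. The microtubule protein MAP2 of dendrites read 12.90 to 13.05 in saline 1, 2 and 4 and 12.22 in saline 3. MAPT, the axonal protein tau, read 12.49, 12.37, 12.63 and 12.01. SYT1, the calcium sensor of synaptic vesicles, read 11.89, 11.70, 11.46 and 11.52. Both samples of array 2 were below both of array 1 here but not on the processed signal, at 2.71, 2.45, 2.71 and 2.60. The neuronal enolase ENO2 read 11.01, 10.88, 11.27 and 11.15. DCX, which marks migrating young neurons, was near the floor at 9.19, 9.16, 9.23 and 9.24 and called in 2 samples. GAP43, the growth cone protein, had no unmarked spot, was called in all 4 samples once marked spots counted, and is not a gene at background.

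Of 8 transcription factors that mark forebrain identity and had a probe, 5 were called in all 4 samples, beside 42% of all named genes, 2 in some and 1 in none. FEZF2, of deep-layer cortical neurons, read 11.22, 10.55, 11.31 and 10.82. LHX2, a patterning factor of the cortex, was steady at 10.89, 10.64, 10.83 and 10.84, and NEUROD2, of excitatory neurons, read 10.72, 9.83, 10.43 and 10.29. In FEZF2 and NEUROD2 alike, both Cy5 samples lay below both Cy3 samples, also on the processed signal, and saline 2 was the lowest sample. EMX2, a dorsal telencephalic factor, read 9.21, 8.98, 10.17 and 9.72 and was higher on array 2 without overlap. Of the 10 hindbrain, cerebellar and spinal genes with a probe, 3 were called in all 4 samples, 2 in some and 5 in none, beside 25.5% of all named genes in none. The 5 were HOXA2, HOXC4, HOXC6, HOXD3 and ATOH1. The calbindin gene CALB1, also expressed in forebrain interneurons, read 10.53, 11.09, 10.85 and 11.24. PAX6, a factor of neural progenitors, read 11.24, 11.29, 11.35 and 11.50.

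Among glutamatergic genes, NRGN, a calmodulin-binding protein of dendrites, was the brightest at 13.38, 11.98, 12.91 and 11.82, high in both Cy3 samples and low in both Cy5 samples. The AMPA receptor subunits GRIA3 (10.44, 10.22, 10.23 and 10.38) and GRIA4 (10.23, 10.12, 10.19 and 10.15) lay close together across samples. The vesicular glutamate transporter SLC17A6 read 9.34, 10.39, 10.13 and 10.24, lowest in saline 1. CAMK2A, a kinase of mature excitatory synapses, and SLC17A8 were called in no sample.

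Of the 15 GABAergic genes, 10 were called in all 4 samples, beside 42% of all named genes, and 13 with marked spots counted. GAD1, which makes GABA, read 9.96, 9.82, 9.88 and 10.06. The interneuron peptide SST had unmarked spots only in saline 2 and 4, at 14.48 and 14.54, and NPY only in saline 1 to 3, at 13.05, 13.29 and 13.33. VIP read 10.84, 10.32, 9.86 and 9.79, with both samples of array 1 above both of array 2. CCK was called in all 4 samples only when marked spots counted. Striatal genes were present too. PENK, the enkephalin precursor, read 12.06, 12.71, 11.16 and 12.71, and ADORA2A, the adenosine receptor of the same neurons, 12.79, 12.99, 13.47 and 13.40, while the dopamine receptor DRD1 was called in 1 sample with no level above 9.02, and PDYN in none.

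Hypothalamic peptides were measured in these forebrains. POMC, precursor of melanocortins, was steady, from 12.83 in saline 1 to 13.12 in saline 4. Hypocretin (HCRT) read 11.25, 11.01, 10.98 and 10.96. By contrast OXT, oxytocin, read 10.50, 11.99, 11.27 and 12.78, and AVP, vasopressin, 9.15, 10.44, 10.25 and 11.13. Both had saline 4 highest and saline 1 lowest. AGRP read 9.23, 10.04, 9.92 and 10.06 and PMCH 9.14, 10.18, 10.04 and 9.88, again with saline 1 lowest.

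All 15 astrocyte genes with a probe were called in at least 1 sample, beside 25.5% of all named genes called in none. In all 4 samples 8 were called, beside 42% of all named genes, and 13 with marked spots counted. MT3, a metal-binding protein, read 14.57, 14.38, 14.92 and 14.46. GLUL, which turns glutamate into glutamine, read 11.29, 11.07, 11.29 and 11.61. The water channel AQP4 read 10.76, 11.17, 10.63 and 11.05, with both Cy5 samples above both Cy3 samples, and the folate enzyme ALDH1L1 10.72, 10.73, 10.85 and 10.74. SPARCL1, S100B and the chaperone clusterin (CLU) each lost 1 sample to the outlier mark and otherwise read 13.65 to 14.33, 12.65 to 12.86 and 12.70 to 13.07. GFAP, the intermediate filament of mature and reactive astrocytes, was at the floor at 9.09, 9.03, 9.09 and 9.11 and was called in 1 sample, from a single probe.

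Of 10 genes of oligodendrocyte precursors and premyelinating cells, 5 were called in all 4 samples, 4 in some and 1 in none. Of all named genes 42% were called in all 4 and 25.5% in none. FYN, a kinase that drives differentiation of these cells and is also found in neurons, read 11.39, 11.75, 11.47 and 12.14. CSPG4, the NG2 proteoglycan of precursors, read 10.53, 10.03, 10.31 and 10.09, BCAS1, of premyelinating cells, 9.53, 9.61, 9.63 and 9.60 and GPR17 9.61, 9.48, 9.34 and 9.31. SOX10, the lineage's transcription factor, was called in 1 sample at 9.07, 9.04, 9.02 and 9.04. Of 22 genes of myelin and mature oligodendrocytes, 9 were called in all 4 samples, close to the 42% of all named genes, and 5 in none, among them OPALIN, ERMN, PLLP and TMEM63A. CLDN11, the tight junction protein of myelin, read 10.57, 10.59, 10.80 and 10.81, UGT8, which makes its galactolipids, 9.88, 9.98, 9.78 and 9.80, and TF, transferrin, 11.65, 11.86, 12.11 and 12.24. GJB1 (mean 14.76) was read from a probe with the CT repeat.

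All 12 microglial genes with a probe were called in at least 1 sample, beside 25.5% of all named genes called in none. Of them 6 (50%) were called in all 4, beside 42% of all named genes. The complement gene C1QA read 9.85, 9.64, 9.99 and 10.03, and the fractalkine receptor CX3CR1 9.18, 9.09 and 9.04 in saline 1 to 3 and less in saline 4, called in 1 sample. Among vessel genes the glucose transporter SLC2A1 read 11.72, 11.62, 11.19 and 12.78, with saline 4 highest, and the tight junction gene CLDN5 10.10, 10.10, 10.38 and 10.37. PECAM1, KDR, FLT1, PDGFRB and RGS5 were called in no sample. They are 5 of the 17 endothelial and pericyte genes with a probe (29.4%), close to the 25.5% of all named genes. Another 5 of the 17 were called in all 4 samples, beside 42% of all named genes. Of 27 cell cycle genes, 18 were called in all 4 samples, beside 42% of all named genes. Among them were CCND2, a G1 cyclin, at 12.28, 12.15, 12.51 and 12.28, PCNA, the replication clamp, at 11.44, 11.75, 11.38 and 11.66, and MKI67 at 10.00, 10.15, 10.02 and 10.07. CDK2 was called in none.

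All 19 genes of the respiratory chain and ATP synthase were called in at least 1 sample, beside 25.5% of all named genes called in none. In all 4 samples 12 were called, beside 42% of all named genes, and all 19 once marked spots counted. ATP5MC3, of the proton ring of ATP synthase, read 15.21, 15.09, 15.27 and 14.99, and NDUFA4 14.44, 14.33, 14.46 and 14.47. Of 27 genes of glycolysis and energy metabolism, 17 were called in all 4 samples, beside 42% of all named genes, 9 in some and 1 in none. The glycolytic enzyme GPI read 13.75, 13.66, 13.86 and 13.51 and LDHA 12.87, 13.03, 12.67 and 12.78. HK2, a hexokinase known from muscle, was called in 1 sample at 8.90, 8.97, 9.01 and 9.04, and HK1, the brain form, read 10.57, 10.15, 10.41 and 10.19.

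At the floor stood 66 list genes called in no sample and with 4 values, with means from 8.89 to 9.06. Counts of genes called in no sample are read beside 25.5% of all named genes. Growth factors and morphogens had 10 such genes of 19, or 9 with marked spots counted, among them SHH, WNT5A, WNT7A, PDGFB, FGF1 and LIF. FGF9, a neuronal growth factor, read 11.19, 10.82, 10.80 and 10.56 in the same list. Of 26 inflammation genes, 8 (30.8%) were called in no sample, close to that share, which are IL1A, IL18, TNF, CCL5, CXCL10, SELE, NOS2 and IRF1. In other organs 9 of 16 were at the floor, among them the liver genes APOA1 and FGA and the muscle genes MYH1, CKM and TNNT3. The glucocorticoid receptor NR3C1 read 9.38, 9.52, 9.34 and 9.36 and was called in 3 samples. The mineralocorticoid receptor NR3C2 (9.10, 9.10, 9.09 and 9.12) and the receptor chaperone FKBP5 (8.90, 8.94, 8.99 and 9.01) were each called in 1, and HSD11B1 and HSD11B2, which interconvert active and inactive steroid, in none.

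Variation within saline was measured as the SD over the 4 samples, for 11038 genes and transcripts that were well above background in at least 2 samples. The median SD was 0.12 log2 units. An SD above 0.5 was found for 387 (3.51%), of which 161 had a name. Correlation between samples across these genes ran from 0.938 (saline 1 and 3) to 0.987 (saline 3 and 4), and genes are not independent replicates. Saline 3 and 4 differed by a median of 0.0506 and saline 1 and 2 by 0.146. The background fitted for array 2 had an SD of 867 and 838 intensity units in its channels against 130 and 128 on array 1, and the corrected value of a median spot was 819 and 1070 on array 2 against 298 and 381 on array 1. On the processed signal the median SD was 0.378, so the size of the spread depends on the scaling. The SD moved by over 1.5 times in 123 of 173 named genes between the 2 scalings. A separation of the arrays depended on it as well. Of 59 of these genes with both samples of array 2 above both of array 1, 57 kept that order on the processed signal, where 52.2% of all genes tested have it. Of 33 with both below, 8 kept it, where 877 of all 11038 genes tested have it. The median difference of all genes on the processed signal, array 2 minus array 1, was 0.35, so the 2 directions are not alike there. Levels below are normalised signals, with processed signals added for some genes.

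The 20 named genes with the largest SD among those called in all 4 samples began with RBBP7, PTGDS, HBA and OXT. PTGDS, the prostaglandin D synthase of meninges and choroid plexus, read 13.17, 15.76, 15.34 and 15.49 (mean 14.94, SD 1.19, n = 4), with saline 1 more than 2 log2 units below the others. As processed signal it read 4.24, 6.71, 6.74 and 6.96, with the same sample apart. PTGDS has 1 probe, and it lies beside spots that differ between the arrays, which are described below. The collagen COL1A2, of meninges and vessel walls, read 11.31, 13.24, 12.60 and 12.60, COL3A1 10.54, 11.97, 11.31 and 11.50, and DCN, decorin, 9.93, 11.13, 10.19 and 10.59. In all 3 saline 1 was lowest and saline 2 highest, which held at each probe that was well above background in 2 or more samples and had all 4 values (3 for COL1A2, 3 for COL3A1 and 6 for DCN). Such probes are called kept probes below. Of 21 meningeal and collagen genes with a probe, 12 were called in all 4 samples, beside 42% of all named genes. Of the 17 tested, 4 had an SD above 0.5, beside 3.51% of all genes tested.

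Globin RNA, which red cells carry, varied by dye. The alpha-globin HBA read 15.01, 16.31, 13.98 and 16.43 (SD 1.16, n = 4), with both Cy5 samples above both Cy3 samples by more than 1 unit. Its second kept probe read 14.84, 15.91, 14.54 and 16.22. The beta-globin HBB2, with marked spots kept, read 15.01, 16.85, 14.24 and 16.97 in the same order. The stretch of the HBA probe is given because the contrast of the dyes rests on it.
HBA: ttcctggccaacgtgagcaccgtgctgacc

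The erythroid haem enzyme ALAS2, near the floor, read 9.13, 9.50, 9.46 and 9.57, with both Cy5 samples narrowly the higher. The leukocyte genes S100A9 (10.64, 10.34, 10.60 and 10.61) and MPO (9.41, 9.25, 9.47 and 9.40) had no Cy5 sample above both Cy3 samples. The tachykinin precursor TAC1 read 11.54, 12.79, 11.68 and 12.36, and with PENK, OXT and AVP it was higher in both Cy5 samples. NRGN, KIF20A and ZBTB18, a cortical repressor (10.97, 9.28, 10.05 and 9.71), were lower in both. Over all genes tested, 1977 (17.9%) lay higher in both Cy5 samples than in both Cy3 samples and 1985 (18%) lower. The limma fit with terms for array and dye called 0 genes for dye (0%) at an adjusted p of 0.05, with a smallest adjusted p of 0.331. At an unadjusted p under 0.05 there were 978 (8.86%). The dye difference of a gene correlated with the GC content of its probe at r = -0.249 across the 11038 genes. Dye and sample are crossed only with array here, so that a dye effect and a difference between samples of the same array cannot be told apart.

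The limma fit called 0 genes for array 2 against array 1 (0%) at an adjusted p of 0.05, and its smallest adjusted p was 0.101. This count depends on the scaling, since the same fit called 893 genes on the processed signal, 1754 with Aquantile over all 4 arrays of the series and 8872 without Aquantile. At an unadjusted p under 0.05 there were 2217 (20.1%), of which 1217 were higher on array 2 and 1000 lower. Both samples of array 2 lay above both of array 1 for 2785 genes (25.2%) and below for 2966 (26.9%). With 4 samples the fit has 1 residual degree of freedom. The differences described next are therefore differences between pairs of samples and not called effects.

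Choroid plexus and ependymal genes lay higher in saline 3 and 4. Of 13 such genes with a probe, CLIC6 and SLC4A5 were called in no sample and 11 were tested. Of these, 9 were above both samples of array 1 and 0 below, beside 25.2% and 26.9% of all genes tested. The median difference was 0.40 log2 units, against -0.00 for all genes. On the processed signal it was 1.13 against 0.35 for all genes, with 11 of 11 above and 52.2% of all genes above. Without scaling between arrays it was 1.23 against 0.88. TTR, the thyroxine carrier of choroid plexus, read 16.34, 15.39, 16.63 and 17.09, with saline 2 lowest. IGFBP2, a growth factor binding protein, read 11.68, 11.94, 12.34 and 12.53. OTX2, the transcription factor of choroid plexus, read 9.02, 9.26, 9.64 and 9.79 and KCNJ13, its potassium channel, 9.11, 9.12, 9.52 and 9.52. FOLR1, a folate receptor, read 9.60, 9.29, 9.83 and 9.87, and KL, klotho, read from a probe with the CT repeat, 11.89, 11.82, 12.23 and 12.36. A different amount of choroid plexus in the dissected samples was not tested.

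Of the 12 immediate early genes tested, 8 had saline 3 and 4 above both samples of array 1 and 0 below, beside 25.2% and 26.9% of all genes, with a median difference of 0.29. On the processed signal the counts were 7 of 12 against 52.2% of all genes, close to the background, with a median of 0.73 against 0.35. FOS, the transcription factor induced within minutes of a stimulus, read 9.34, 9.44, 10.24 and 11.66. In that scaling FOS read -1.75, -1.43, -1.36 and 2.74, so there only saline 4 stood apart. JUN, its partner, read 9.50, 9.44, 9.95 and 10.18 and BTG2, an antiproliferative early gene, 9.32, 9.19, 9.86 and 10.28. PTGS2, the inducible cyclooxygenase, read 9.18, 9.38, 9.85 and 10.23 and CCN1 9.38, 9.36, 9.90 and 10.11. In all 5 saline 4 was highest and saline 3 next, also on the processed signal, and NR4A1 (10.00, 9.68, 9.75 and 9.78) and NR4A2 (10.44, 10.12, 10.12 and 10.39), also early genes, did not lie higher there.

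Among inflammation genes, CCL2, the monocyte chemokine, read 9.18, 9.19, 9.97 and 10.66 and CCL4 9.61, 9.28, 10.08 and 10.69. CD14, the endotoxin co-receptor, read 9.59, 9.56, 10.24 and 10.56, and the acute-phase gene SAA3, called in 1 sample, read 8.99, 8.98, 9.65 and 10.05. The processed signal of CCL2 read -2.74, -2.56, -1.34 and 1.66 and that of CCL4 -0.92, -1.59, -0.24 and 1.70, in the same order of arrays. Of 13 inflammation genes tested, 6 (46.2%) lay above both samples of array 1 and 2 below, beside 25.2% and 26.9% of all genes, and on the processed signal 11 lay above, beside 52.2%. IL10 ran the other way, at 10.15 in saline 1 and 9.23, 9.13 and 9.07 in the others. A few genes chosen after their values were seen had saline 4 highest. GADD45A, a DNA damage and growth arrest gene, read 10.19, 10.59, 10.57 and 11.82, and SAT1, the polyamine-degrading enzyme, 10.21, 10.68, 10.63 and 12.01. NFKBIA, the inhibitor of NF-kappaB, read 12.64, 12.59, 12.74 and 13.36.

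**Figure D4:**
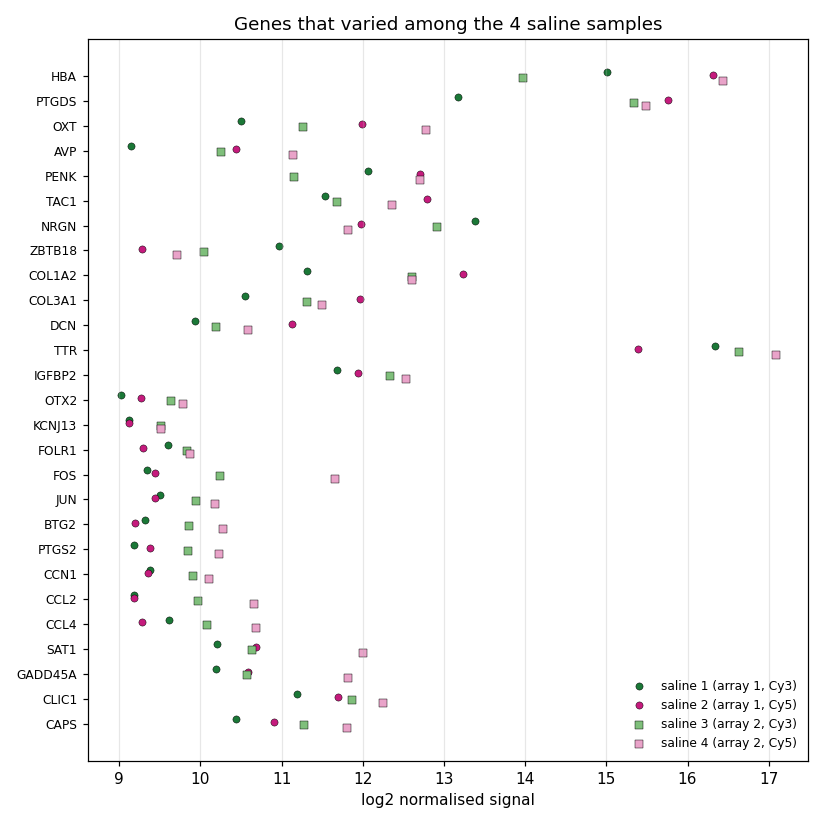
Log2 normalised signal (horizontal axis) of 27 genes that varied among the 4 saline samples, 1 point per sample, circles for array 1 and squares for array 2, green for Cy3 and pink for Cy5. HBA splits by dye, PTGDS has saline 1 apart at 13.17, and FOS, CCL2, SAT1 and GADD45A have saline 4 highest at 11.66, 10.66, 12.01 and 11.82.

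Of 2617 named genes with 2 or more kept probes, 17 had an SD above 0.4 at every kept probe together with the same highest and lowest sample at each. Among them were HBA, COX6A2, COL1A2, SAT1, CRYBB2, ZBTB18, GADD45A, SOCS5, CCL4, EIF4G2, COL3A1, CAPS, FAM171B, PMCH and CLIC1. COX6A2, the muscle form of a cytochrome oxidase subunit, read 10.20, 11.24, 12.57 and 11.50 at its first probe and 9.64, 10.56 and 11.81 in saline 1 to 3 at its second, again highest in saline 3. EIF4G2, a translation factor, read 13.55, 14.46, 14.61 and 14.95. The chloride channel protein CLIC1 read 11.19, 11.69, 11.86 and 12.25 and CAPS, a calcium-binding protein, 10.44, 10.91, 11.28 and 11.81. Many of the probes of 1 gene overlap in sequence, so they are not independent readings.

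Some of the variable genes lay close together on the array. Over 1 log2 unit in both dyes, 53 probes were higher on array 2 and 39 lower. Of the first set, 62.3% had another probe of the set within 2 rows and columns, against 2.55% of all 18972 kept probes, and of the second 69.2% against 1.80%. Where the gene of such a probe had another kept probe (12 and 6 genes), 0 differed likewise. ATF7IP2 read 12.98, 12.29, 8.90 and 8.89 at 1 probe, and its other probes had means of 8.95 and 8.92. IQGAP2 read 12.52, 11.64, 9.21 and 9.21, and its other 4 probes had means from 9.12 to 9.22. RBBP7, which had the largest SD among named genes called in all 4 samples, read 10.16, 10.17, 12.71 and 11.72 at this probe and 9.90, 10.14, 10.06 and 10.31 at its other. Of the 20 named genes with the largest SD among those called in all 4 samples, 12 lay among or beside such spots. They included RBBP7, PTGDS, OXT, ZNF142, TMEM42, ARHGDIB, NEURL3 and KCNK10. Of all kept probes, 2.55% had a probe of the higher set within 2 rows and columns and 1.80% one of the lower set. RBBP7, ZNF142, ARHGDIB and MECOM were themselves among the 92 differing probes. For these genes the large SD and the place in the set come from the same values. Among other genes described here, NRGN, SLC2A1, FOLR1, POMC, UCHL1, FGF9, MPO, HSPD1 and IL10 also lay beside such spots. HBA, COX6A2, AVP, COL1A2, FANCL, AGAP1 and SAT1 did not.

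**Figure D5:**
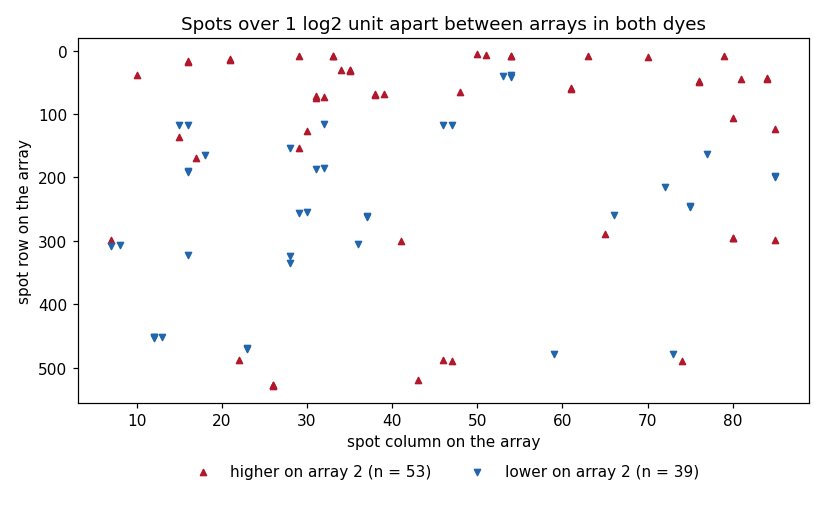
Position on the array, as spot column (horizontal axis) and spot row (vertical axis), of the 92 probes that differed by over 1 log2 unit between the arrays in both dyes, red upward triangles for 53 higher on array 2 and blue downward triangles for 39 lower. The probes lie in small clusters, with 62.3% and 69.2% having a probe of the same set within 2 rows and columns.

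Among named genes called in all 4 samples, the 10 with the smallest SD were AZIN1, IL16, BUD13, OXNAD1, SRGAP1, DHX32, MGA, PRPF38A, RNASE6 and BTD. AZIN1, an inhibitor of antizyme in polyamine control, read 10.18, 10.18, 10.18 and 10.19. IL16 read 9.33, 9.34, 9.34 and 9.33. On the processed signal the same probes were less steady, and IL16 read -1.81, -1.74, -0.92 and -1.32, so their steadiness depends on the scaling.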

How the data were processed

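Mean and local background intensity per spot came from the deposited scanner files, each sample from the channel of its own dye per the labels, without control spots. The deposited processed signal had been detrended over the array and normalised between dyes, per the file headers, and the deposited series table matched background-subtracted intensity divided by a constant per column. The submitters' processing notes name Feature Extraction 10.7.3.1, and the file headers give the grid version as 11.0.1.1. With limma 3.58.1 in R 4.3.3, intensities were corrected (normexp, offset 50), normalised within arrays (loess, control and outlier spots at weight 0) and between the 2 saline arrays (Aquantile), and turned into 1 log2 value per channel. Outlier spots were dropped, and replicate spots averaged. A gene was read from its brightest probe that passed the background call in 2 or more samples and had all 4 values. Array and dye were fitted (lmFit, eBayes) with Benjamini-Hochberg adjustment over 11038 features and 1 residual degree of freedom. The fit was tested on simulated data. Symbols came from the array's annotation and a RefSeq gene table.

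The named-gene rule took the brightest and the most and least variable genes, list members by level or spread, and fixed names. Genes outside it, the CT repeat and the spots beside differing spots were chosen after the values were seen. The members and lists were chosen with earlier results of these data known. Alternatives changed background correction, scaling, filters, the probe rule, outlier spots and each sample in turn. Some genes are not reported here.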

Additional observations from a re-analysis of the deposited data

Results flagged for a closer look

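In 6 of 173 named genes, 1 of the 4 saline samples lay far from the other 3 relative to the gene's range, where chance alone gives about 1 gene in 20. The 6 are thus a smaller share than chance gives. Some of the 173 genes were also chosen for their spread in these values. PTGDS read 13.17 in saline 1, and the other samples lay between 15.34 and 15.76. AGRP, a hypothalamic peptide, read 9.23 in saline 1, with the others between 9.92 and 10.06. ALDH1L1 read 10.85 in saline 3, with the others at 10.72 to 10.74. IL10 read 10.15 in saline 1, with the others between 9.07 and 9.23, from a probe beside spots that differ between the arrays. FDFT1 read 12.17 in saline 2, with the others at 11.87 to 11.91, and S100A9 10.34 in saline 2, with the others at 10.60 to 10.64. On the processed signal PTGDS and AGRP again had saline 1 lowest, at 4.24 and -1.91, and IL10 had saline 1 highest at 0.24. There ALDH1L1 read 1.30, 1.23, 2.07 and 1.73 and FDFT1 2.71, 3.00, 3.16 and 3.02, so the sample named above no longer stood apart, while S100A9 was again lowest in saline 2 at 0.78.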

How the results depend on the processing

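No paired analysis was possible because only 1 group was used. The median SD of 0.12 became 0.378 on processed signals, 0.528 without Aquantile, 0.0594 with no filter on dim probes and 0.513 in the deposited table. The 0 array calls became 893 on processed signals, 8872 without Aquantile, 1754 with Aquantile over all 4 arrays of the series, 139 with the filter at all 4 samples and 2258 in the deposited table, and 0 to 55 with a sample left out, the 55 without saline 4. At an unadjusted p under 0.05 the 2217 became 3536, 9003, 3984, 1434 and 5364 under the same settings, 3383 with no filter, and 612 to 2512 with a sample left out, lowest without saline 4 and at 652 without saline 3. The 0 dye calls of 11038 became 1 of 6970 with the filter at all 4 samples and 10731 of 17375 in the deposited table, which has no dye normalisation. The 978 unadjusted ones became 1814 on processed signals, 11340 in the deposited table and 166 to 1353 with a sample left out, lowest without saline 2 and at 400 without saline 1 and 245 without saline 4. The 4173 genes called in all samples became 8264 with a limit of 2 times the local background and 4192 to 4882 with a sample left out. SDs of the 173 named genes moved by over 1.5 times in 123 on processed signals and in 64 without Aquantile. Chosen after the data were seen, leaving out spots beside the differing spots moved 8 of 158 SDs, and leaving out probes with the CT repeat 2 of 169. The cause of these shifts was not tested. Signal over background limits levels near the floor of about 9, where the size of a difference depends on the scaling. OTX2 differed between the arrays by 0.57 in normalised and by 3.12 in processed signal.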

Other observations

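Neuronal ion channel and transporter genes were measured across a broad range. Of 20 with a probe, 11 were well above background in all 4 saline samples, beside 42% of all named genes, or 15 with marked spots counted. The potassium channel KCND2 read 11.82, 11.95, 12.70 and 12.53, higher on array 2 without overlap. The calcium channel CACNA1A read 11.85, 11.31, 11.43 and 11.61. SCN8A, a sodium channel of mature axons, read 9.98, 9.72, 9.53 and 9.43, lower on array 2 without overlap. On the processed signal (0.06, -0.29, -0.20 and -0.93) the pairs overlapped. The difference, array 2 minus array 1, was -0.368 in normalised and -0.447 in processed signal. KCNA1 and CACNA1E were called in no sample.

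Of 14 cholesterol and fatty acid synthesis genes with a probe, 6 were called in all 4 samples, close to the 42% of all named genes. FDFT1, squalene synthase, read 11.87, 12.17, 11.91 and 11.88 and IDI1, an isomerase of the same pathway, 10.60, 10.95, 10.21 and 10.05. IDI1 was lower on array 2 without overlap, but on the processed signal (1.26, 1.65, 1.27 and 0.71) the pairs overlapped. MVK and ACACA were called in no sample.

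Among chaperones and proteasome genes, all 22 were called in at least 1 sample, beside 25.5% of all named genes called in none. HSPA8, the constitutive heat shock protein, read 15.47, 15.56, 15.10 and 14.62, PSMB4, of the proteasome core, 12.09, 12.62, 13.10 and 13.09, and HSPD1, of the mitochondrial matrix, 11.46, 11.64, 11.38 and 11.60. PSMB4 was higher on array 2 without overlap, also on the processed signal. HSPA8 was lower there without overlap, but as processed signal it read 6.38, 6.48, 6.42 and 6.06, where the pairs overlapped.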
